A study of Mus musculus with 8 samples.

Results

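The 10 genes described are genes of the marrow niche, the stroma, fat and vessel cells that house blood-forming cells, and were read in the bone marrow of mice with transplanted leukemia. The genes were taken by symbol: Cxcl12, Kitl and Lepr (niche signals and the receptor that marks their source), Sparc, Col1a1, Col1a2 and Col3a1 (matrix), Fabp4 (fat), and Pecam1 and Cdh5 (endothelium). All 10 were found among the 23997 genes of the table, and 6 of them passed the filter of at least 1 FPKM in at least 2 libraries that 12565 genes passed. FPKM is the number of sequenced fragments per kilobase of transcript, scaled to the mapped fragments of the library. Kitl, Lepr, Col3a1 and Cdh5 lay below the filter. Fibronectin, Fn1, was not taken because it is listed at 0 in every library of a group.

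The 8 libraries came from C57BL/6 marrow transduced with AML1-ETO + Meis2 (AE+Meis2, n = 3, median latency 171 days), AML1-ETO9a + Meis2 (AE9a+Meis2, n = 3, 102 days) or AML1-ETO9a alone (AE9a, n = 2, 138 days). AML1-ETO joins the blood transcription factor RUNX1 to the corepressor RUNX1T1, AML1-ETO9a is a truncated splice form of it, and Meis2 is a homeobox transcription factor. In all 3 groups the donors had received 5FU, their marrow was cultured with IL3, IL6 and SCF, and the recipients had been lethally irradiated and had succumbed to leukemia. The age of the mice, the promoter of the vectors and the recipient behind each library are not stated in the labels, and no marrow without leukemia was analysed here. RNA was made from whole marrow, so that fewer cells of a type and less RNA per cell cannot be told apart.

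In marrow, reticular stromal cells that carry the leptin receptor secrete the chemokine CXCL12, which holds blood stem cells in place through its receptor CXCR4. The same cells and the endothelium make KIT ligand, also called stem cell factor, which sustains stem cells and mast cells through KIT. Stromal and bone-forming cells lay down a matrix of type I and type III collagen that SPARC binds, while fat cells and vessels fill the space between. In transplanted animals these cells are largely those of the recipient.

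Some libraries stood apart before any comparison. In the library labelled AE+Meis2 replicate 1, Runx1t1, whose coding sequence is part of the transduced fusion, was at 21.6 FPKM, against 223 and 218 FPKM in AE+Meis2 replicates 2 and 3 and 10.3 to 26.8 FPKM in the 5 libraries with AE9a. Its Meis2, 13.1 FPKM, lay below the 38.2 and 81.5 FPKM of AE+Meis2 replicates 2 and 3 and level with 6.99 and 13.2 FPKM in AE9a, which carries no Meis2 vector. The 3 AE9a+Meis2 libraries had 621, 604 and 1277 FPKM of Meis2, so the level of the transduced gene differed between the groups that carry it. The transduced genes go against the label of the library labelled AE+Meis2 replicate 1, and each direction that involves AE+Meis2 includes it. Sex, which the labels do not state, also went with the groups in part. Eif2s3y, on the Y chromosome, read 158, 176 and 7.06 FPKM with AE+Meis2, against 0.120 to 0.574 FPKM in the 5 libraries with AE9a. Xist, the RNA of the inactive X chromosome, was at 1.93, 5.79 and 99.0 FPKM in AE+Meis2, against 82.4 to 206 FPKM in the same 5. By these genes the library labelled AE+Meis2 replicate 1 lay with AE+Meis2 replicate 2 and apart from every library with AE9a. AE+Meis2 replicate 3 was mixed: its Xist lay in the range of the libraries with AE9a, and its Eif2s3y lay above theirs. Sex thus went with the group only in part, but its share in both comparisons with AE+Meis2 cannot be told apart from that of the group. Families that marrow does not use (1543 olfactory receptor, vomeronasal receptor, keratin-associated and beta-defensin genes) averaged 0.461 FPKM in AE9a+Meis2 replicate 3 and 0.597 FPKM in AE9a replicate 1, against 0.0228 to 0.0461 FPKM in the other 6 libraries. Read counts are not in the table, but the most common ratio between low values estimates relative depth roughly. By it, AE9a replicate 1 was 8.28-fold, AE+Meis2 replicate 2 was 6.73-fold and AE9a+Meis2 replicate 3 was 3.18-fold shallower than AE9a+Meis2 replicate 2. The next most common ratios gave 16.6-fold, 3.36-fold and 6.36-fold. In AE9a replicate 1 and AE9a+Meis2 replicate 3, background and depth cannot be told apart in low values. AE+Meis2 replicate 2 was also the highest library for 25.1% and the lowest for 25.7% of the genes tested.

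The promoters of 4 members are shown because their genes were each highest in the same library, AE+Meis2 replicate 2, and because the transduced proteins bind DNA. Each window runs from 250 bases before to 50 bases after the transcription start in RefSeq (GRCm38.p6, the assembly known as mm10). They lie at chr11:55420031-55420330, minus strand (Sparc), chr6:4505368-4505667, plus strand (Col1a2), chr1:45311288-45311587, plus strand (Col3a1) and chr6:117168285-117168584, plus strand (Cxcl12). Capitals mark matches, on either strand, to TGTGGT (bound by RUNX1), TGACAG (bound by MEIS factors), CCAAT and TATAAA.
Sparc: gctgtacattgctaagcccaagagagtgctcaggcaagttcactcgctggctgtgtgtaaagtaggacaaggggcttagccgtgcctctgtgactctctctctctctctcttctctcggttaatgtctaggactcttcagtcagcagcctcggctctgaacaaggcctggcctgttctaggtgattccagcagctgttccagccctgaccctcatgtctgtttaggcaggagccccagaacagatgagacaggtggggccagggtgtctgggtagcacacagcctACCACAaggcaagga
Col1a2: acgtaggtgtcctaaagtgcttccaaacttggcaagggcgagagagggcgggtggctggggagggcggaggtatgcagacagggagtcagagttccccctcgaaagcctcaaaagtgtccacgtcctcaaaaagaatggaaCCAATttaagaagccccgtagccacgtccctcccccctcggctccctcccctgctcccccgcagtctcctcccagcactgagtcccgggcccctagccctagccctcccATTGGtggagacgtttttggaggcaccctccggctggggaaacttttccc
Col3a1: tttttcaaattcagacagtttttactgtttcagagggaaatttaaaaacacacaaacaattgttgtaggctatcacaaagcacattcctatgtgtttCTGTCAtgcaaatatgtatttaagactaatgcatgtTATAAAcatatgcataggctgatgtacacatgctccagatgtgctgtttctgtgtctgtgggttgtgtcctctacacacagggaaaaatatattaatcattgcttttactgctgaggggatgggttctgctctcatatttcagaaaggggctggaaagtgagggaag
Cxcl12: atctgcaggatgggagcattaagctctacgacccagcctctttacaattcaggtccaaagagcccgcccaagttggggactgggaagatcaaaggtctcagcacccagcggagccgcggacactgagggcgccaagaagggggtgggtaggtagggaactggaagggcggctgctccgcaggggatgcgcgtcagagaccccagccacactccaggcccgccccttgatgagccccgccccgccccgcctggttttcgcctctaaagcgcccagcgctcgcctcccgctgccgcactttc

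The Sparc window held the RUNX letters on the minus strand of the gene, starting 35 bases after the start site. The Col3a1 window held the MEIS letters, 153 bases before the start site, and TATAAA 117 bases before it. Col1a2 held CCAAT on both strands, 109 bases before the start and at the start itself, and Cxcl12 held none of the 4. Of 32851 promoter windows of this length, 16.8% held TGTGGT, 19.2% TGACAG, 37.4% CCAAT and 13.6% TATAAA in either direction. Among the 7 windows of the 6 members with an entry, 1 held TGTGGT and 2 held each of the others. These are matches of letters in a window and say nothing of binding.

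The members differed widely in level. By the median of the 8 libraries, in FPKM, which is scaled by length, Fabp4 came first (24.9), followed by Pecam1 (15.3), Cxcl12 (9.29), Sparc (2.22), Col1a2 (1.33), Col1a1 (0.649), Lepr (0.566), Kitl (0.467), Col3a1 (0.216) and Cdh5 (0.111). Neighbours in this order overlapped in range over the libraries throughout. Fabp4, Pecam1 and Cxcl12 held 66.1% of the summed FPKM of the 10 in AE+Meis2 replicate 2 and 86.2% to 93.3% in the other 7 libraries. The markers of stroma, fat and vessels were unequal in level. The reticular cell receptor Pdgfra reached 0.724 FPKM at most, the fat hormone Adipoq 2.01 FPKM, and the vascular receptor Kdr 0.839 FPKM. Other genes of the same lists were abundant: 6 of 14 fat genes and 8 of 24 endothelial genes passed the filter, with the lipases Lipe and Lpl reaching 16.8 and 37.7 FPKM, the vascular factor Egfl7 72.9 FPKM and the transcription factor Erg 48.9 FPKM. Blood cells make Fabp4 and Pecam1 as well. The part of each cell type in the levels of Fabp4, Pecam1, Lipe, Lpl, Egfl7 and Erg was not tested.

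**Figure D1:**
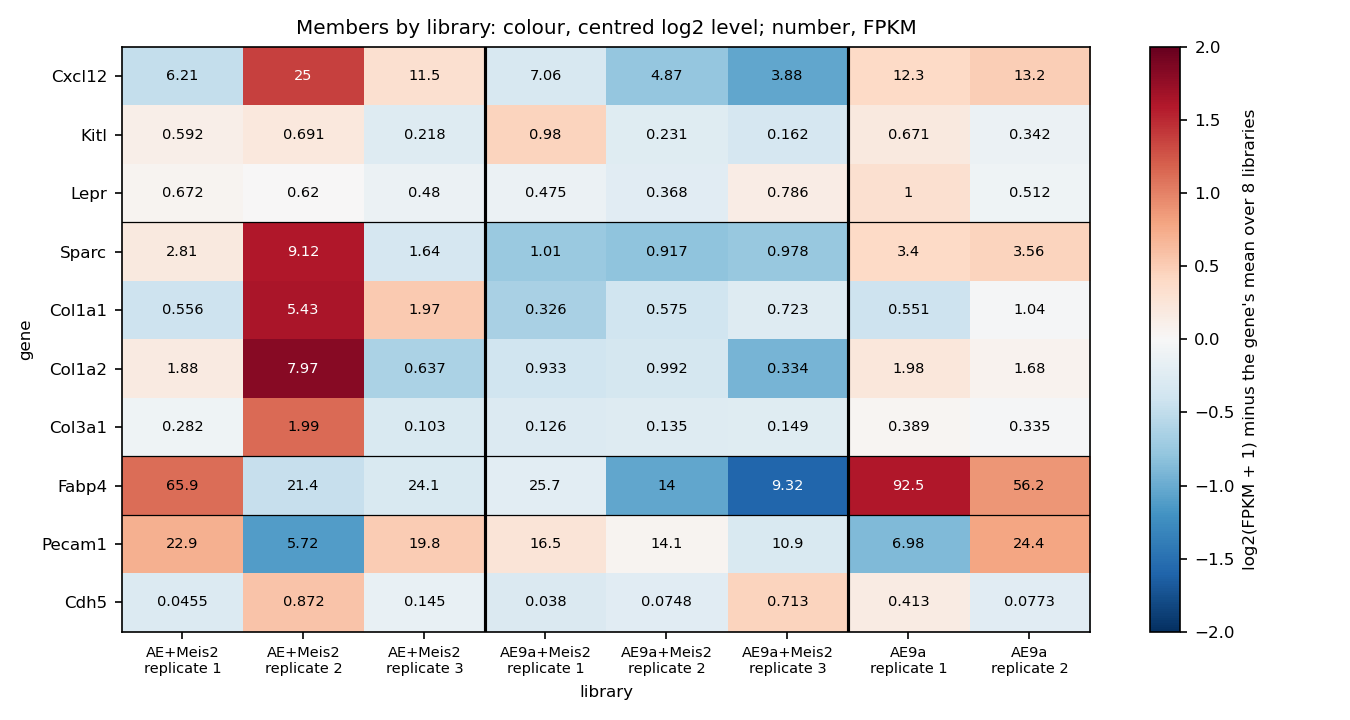
The 10 members (rows, by role) in the 8 libraries (columns, by group). Numbers are FPKM, and colour is log2(FPKM + 1) minus the mean of the gene over the 8 libraries: the 4 matrix genes are deepest red in AE+Meis2 replicate 2, where Pecam1 is at its lowest, 5.72 FPKM.

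Cxcl12 (chromosome 6, 117168535 to 117181368) read 6.21, 25.0 and 11.5 FPKM in the AE+Meis2 libraries, 7.06, 4.87 and 3.88 FPKM with AE9a+Meis2, and 12.3 and 13.2 FPKM with AE9a alone. The AE9a+Meis2 libraries lay below both AE9a libraries, and the library labelled AE+Meis2 replicate 1 lay among them. Its group means were 14.2 ± 9.66 FPKM in AE+Meis2 (SD, n = 3), 5.27 ± 1.63 FPKM in AE9a+Meis2 (n = 3) and 12.7 ± 0.629 FPKM in AE9a (n = 2). Its receptor Cxcr4 read 54.5, 197 and 168 FPKM in the AE+Meis2 libraries, 409, 137 and 114 FPKM with AE9a+Meis2, and 51.9 and 71.3 FPKM with AE9a alone. The groups with the lowest ligand and the highest receptor were thus the same by mean, and Cxcr4 stood 28.2 to 58.0 times as high as Cxcl12 in AE9a+Meis2 libraries, against 4.22 and 5.41 times in AE9a and 7.89 to 14.6 times in AE+Meis2.

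Kitl (chromosome 10, 100015615 to 100100416) read 0.592, 0.691 and 0.218 FPKM in the AE+Meis2 libraries, 0.980, 0.231 and 0.162 FPKM with AE9a+Meis2, and 0.671 and 0.342 FPKM with AE9a alone. It was low in every library, and the groups overlapped in every pair. Kit, its receptor on blood progenitors, was far more abundant, at 16.3 to 224 FPKM over the 8 libraries. Lepr (chromosome 4, 101717137 to 101815352) read 0.672, 0.620 and 0.480 FPKM in the AE+Meis2 libraries, 0.475, 0.368 and 0.786 FPKM with AE9a+Meis2, and 1.00 and 0.512 FPKM with AE9a alone. It had the narrowest range of the 10, 2.73-fold from lowest to highest. The highest Lepr values of AE9a+Meis2 and of AE9a came from the libraries with values in silent families, where Lepr was 1.70 and 1.68 times the mean of those families.

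Sparc (chromosome 11, 55394159 to 55420080), a secreted glycoprotein that binds collagen, read 2.81, 9.12 and 1.64 FPKM in the AE+Meis2 libraries, 1.01, 0.917 and 0.978 FPKM with AE9a+Meis2, and 3.40 and 3.56 FPKM with AE9a alone. All 3 AE9a+Meis2 libraries lay below the other 5, which 1.78% of tested genes also did. Its spread was small in both groups with AE9a: the means were 0.967 ± 0.0456 FPKM in AE9a+Meis2 (SD, n = 3) and 3.48 ± 0.118 FPKM in AE9a (n = 2). In AE+Meis2 the mean was 4.52 ± 4.03 FPKM (n = 3), with replicate 2 far above the other libraries. Sparc passed the filter largely through the groups in which it is higher.

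Col1a1 (chromosome 11, 94936224 to 94953042) and Col1a2 (chromosome 6, 4505618 to 4541543) code for the 2 chains of type I collagen, the main fibre of bone. Col1a1 read 0.556, 5.43 and 1.97 FPKM in the AE+Meis2 libraries, 0.326, 0.575 and 0.723 FPKM with AE9a+Meis2, and 0.551 and 1.04 FPKM with AE9a alone. Col1a2 read 1.88, 7.97 and 0.637 FPKM in the AE+Meis2 libraries, 0.933, 0.992 and 0.334 FPKM with AE9a+Meis2, and 1.98 and 1.68 FPKM with AE9a alone. For Col1a2 the AE9a+Meis2 libraries lay below both AE9a libraries, while for Col1a1 they overlapped. Although the chains form 1 molecule, the level of Col1a2 over that of Col1a1 varied from 0.324 in AE+Meis2 replicate 3 to 3.59 in AE9a replicate 1. In AE9a replicate 1, Col1a1 was 0.923 times the mean of the silent families. In AE9a+Meis2 replicate 3, Col1a2 was 0.725 times that mean, so both values lay near the background. Col3a1 (chromosome 1, 45311538 to 45349706), the type III collagen of reticular fibres and vessel walls, read 0.282, 1.99 and 0.103 FPKM in the AE+Meis2 libraries, 0.126, 0.135 and 0.149 FPKM with AE9a+Meis2, and 0.389 and 0.335 FPKM with AE9a alone. The AE9a+Meis2 libraries again lay below both AE9a libraries, but AE9a+Meis2 replicate 3 and AE9a replicate 1 fell below the mean of the silent families in their own library, at 0.324 and 0.652 times it. Fn1, another matrix gene, had entries of 0 throughout AE9a+Meis2, with 57.1 to 80.8 FPKM in AE+Meis2 and 99.8 and 223 FPKM with AE9a alone. An entry of 0 across exactly 1 group can be a failed estimate, and no loss of Fn1 is read from it.

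**Figure D2:**
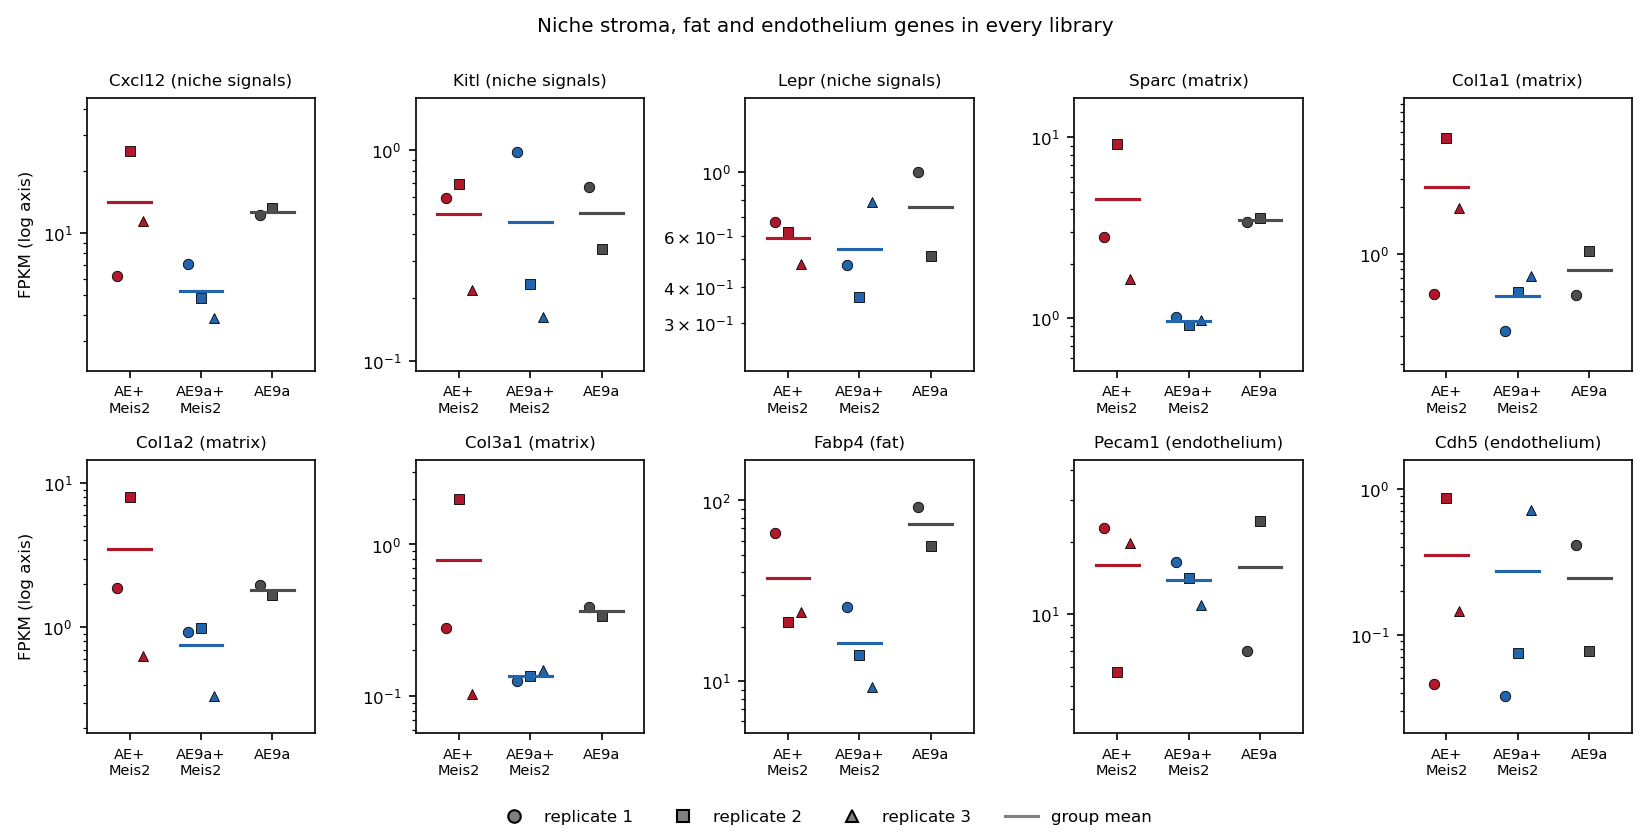
FPKM on a log axis for each member, 1 panel a gene, with the groups AE+Meis2, AE9a+Meis2 and AE9a from left to right. Points are libraries, with the shape giving the replicate, and lines are group means: Sparc in AE9a+Meis2 lies at 0.917 to 1.01 FPKM, below every other library.

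Fabp4 (chromosome 3, 10204342 to 10208616) carries fatty acids in fat cells, in capillary endothelium and in macrophages. It read 65.9, 21.4 and 24.1 FPKM in the AE+Meis2 libraries, 25.7, 14.0 and 9.32 FPKM with AE9a+Meis2, and 92.5 and 56.2 FPKM with AE9a alone. Both AE9a libraries and the library labelled AE+Meis2 replicate 1 were high, and the AE9a+Meis2 libraries lay below AE9a without overlap. Adipoq read 0.530, 2.01 and 0.297 FPKM in the AE+Meis2 libraries, 0.294, 0.178 and 0.520 FPKM with AE9a+Meis2, and 0.739 and 0.138 FPKM with AE9a alone, so that Fabp4 stood between 10.6 and 407 times as high. Of the other fat genes, Plin1 and Cidec were at or below 0.787 FPKM in every library, whereas Lipe was at 7.76 to 16.8 FPKM, the fat cell regulator Pparg at 1.34 to 20.2 FPKM and Lpl at 1.71 to 37.7 FPKM. The macrophage complement gene C1qa read 91.2, 40.6 and 9.77 FPKM in the AE+Meis2 libraries, 11.2, 6.54 and 9.90 FPKM with AE9a+Meis2, and 21.4 and 35.9 FPKM with AE9a alone. The part of macrophages in the level of Fabp4 was not tested.

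Pecam1 (chromosome 11, 106654213 to 106715281), a junction protein of endothelium that platelets and many white cells also carry, read 22.9, 5.72 and 19.8 FPKM in the AE+Meis2 libraries, 16.5, 14.1 and 10.9 FPKM with AE9a+Meis2, and 6.98 and 24.4 FPKM with AE9a alone. The groups overlapped fully, and both AE9a libraries lay outside the range of AE9a+Meis2 on opposite sides. Cdh5 (chromosome 8, 104101613 to 104144504), the cadherin of vascular junctions, read 0.0455, 0.872 and 0.145 FPKM in the AE+Meis2 libraries, 0.0380, 0.0748 and 0.713 FPKM with AE9a+Meis2, and 0.413 and 0.0773 FPKM with AE9a alone. The highest Cdh5 stood in the library with the lowest Pecam1, and Pecam1 was 6.56 times Cdh5 there, against 15.3 to 502 times in the other 7 libraries. In AE9a+Meis2 replicate 3 and AE9a replicate 1, Cdh5 was 1.54 and 0.691 times the mean of the silent families, so its 2 next highest values lay near the background of those libraries. In AE+Meis2 replicate 2 it was 23.0 times that mean.

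**Figure D3:**
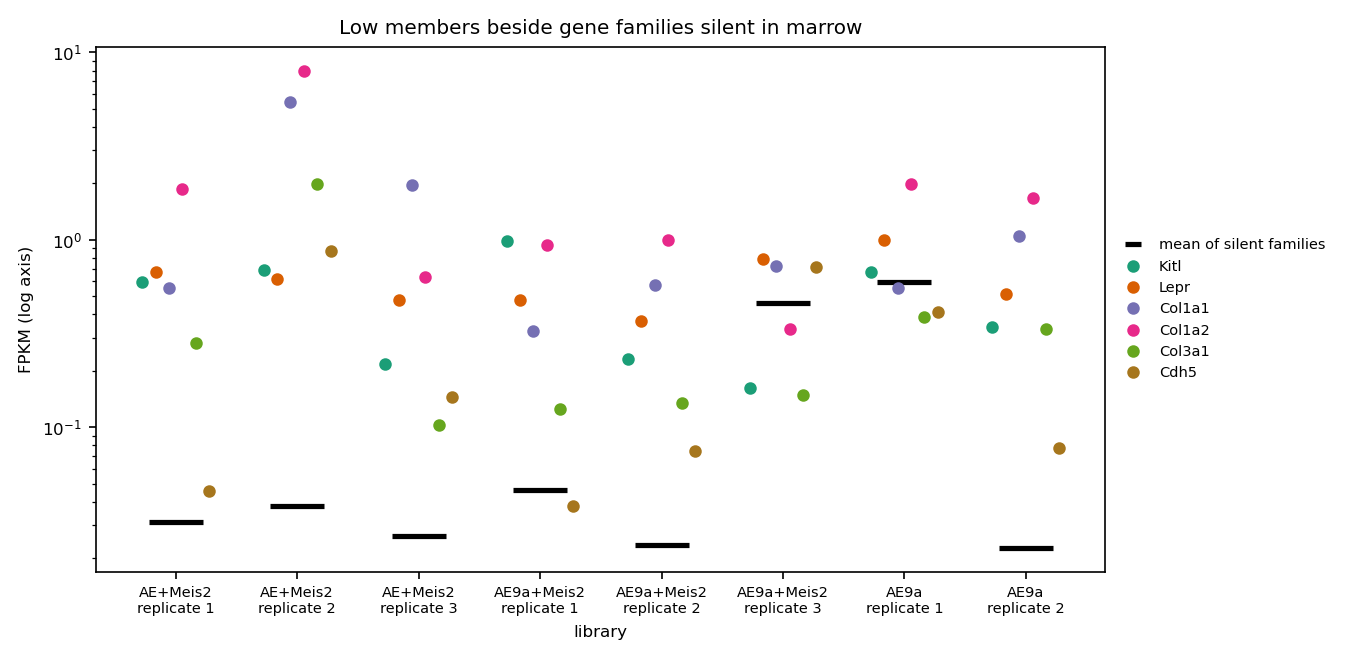
FPKM on a log axis of 6 low members (coloured points) beside the mean of 1543 genes of silent families (black bars) in each library. In AE9a+Meis2 replicate 3 and AE9a replicate 1 the bars reach 0.461 and 0.597 FPKM, and 3 members lie under the bar in each.

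The comparison of AE9a+Meis2 with AE9a asked what differed when Meis2 came with the truncated fusion. In it, 8 of 10 members, and 5 of the 6 tested, were lower in AE9a+Meis2, where 50.1% of all tested genes were. Col1a1, Col1a2 and Sparc reached the filter wholly or largely through the other groups, so nothing is read from either count. The members had a median log2 difference of -0.24, against -0.0011 over all genes tested. The median was -0.52 without AE9a replicate 1 and -0.47 without both libraries with values in silent families. Fabp4 differed most, with a mean of 16.3 ± 8.41 FPKM in AE9a+Meis2 (SD, n = 3) and 74.4 ± 25.7 FPKM in AE9a (n = 2), a log2 difference of -2.19 ± 0.58 (SE). Cxcl12 differed by -1.16 ± 0.51 and Sparc by -1.19 ± 0.52. None of the tested members passed limma after adjustment over all genes (adjusted p = 1 for each). Of the 6, 1 had an unadjusted p under 0.05, Fabp4, which came 70th of all genes by p. Over all genes, 0.0478% passed after adjustment and 3.06% had an unadjusted p under 0.05. Of the 6 tested members, 4 were lower in AE9a+Meis2 without overlap of the libraries, where 10.7% of all tested genes were. Among the 4, Col1a2 passed the filter through the other groups alone and Sparc nearly so, and nothing is read from this count. Col1a2 itself differed by -0.71 ± 0.65 (SE), close to its error. Col1a1 and Pecam1, whose libraries overlapped, differed by less than their error, by -0.22 ± 0.55 and 0.042 ± 0.66. Pecam1 changed sign when small RNA genes were left out and the rest rescaled (-0.058). The 4 members below the filter, Kitl, Lepr, Col3a1 and Cdh5, differed by -0.26 to 0.0085.

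The comparison of AE+Meis2 with AE9a+Meis2 set the full-length against the truncated fusion, both with a Meis2 vector. Meis2 itself was at 13.1 to 81.5 FPKM in AE+Meis2, against 604 to 1277 FPKM in AE9a+Meis2, so that the fusion, the level of Meis2 and sex cannot be told apart here. All 10 members were higher in AE+Meis2 by mean, with a median log2 difference of 0.76 against 0.043 over all tested genes, of which 54.9% were higher. Sparc differed by 1.25 ± 0.47 (SE), Cxcl12 by 1.11 ± 0.46, Fabp4 by 1.06 ± 0.52, Col1a1 by 1.02 ± 0.49 and Col1a2 by 1.01 ± 0.58. None of the tested members passed limma after adjustment over all genes (adjusted p = 0.67 to 0.997). Of the 6, 2 had an unadjusted p under 0.05, Sparc and Cxcl12. Over all genes, 0.0398% passed after adjustment and 7.15% had an unadjusted p under 0.05. Only Sparc of the 6 was higher without overlap, as 7% of tested genes were. Much of this rested on AE+Meis2 replicate 2: without it the median was 0.41, 8 of 10 members were higher, and the differences were 0.69 for Sparc, 0.63 for Cxcl12, 0.49 for Col1a1 and 0.33 for Col1a2. Fabp4 was 1.35 without that library and 0.56 without the library labelled AE+Meis2 replicate 1. Pecam1 (0.027 ± 0.59) and the untested Kitl, Lepr and Cdh5 (0.051 to 0.077) stood close to 0. The number of members with a higher mean was 8 with small RNA genes left out and 7 without AE9a+Meis2 replicate 2.

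The comparison of AE+Meis2 with AE9a shares its libraries with both others. In it 6 of 10 members were higher in AE+Meis2 and 4 were lower, with a median log2 difference of 0.065 against 0.055 over all tested genes, of which 55.9% were higher. Fabp4 averaged 37.2 ± 25.0 FPKM in AE+Meis2 (SD, n = 3) and 74.4 ± 25.7 FPKM in AE9a (n = 2), a log2 difference of -1.12 ± 0.58 (SE). Col1a1 differed by 0.80 ± 0.55, and Cxcl12 and Sparc by -0.047 ± 0.51 and 0.060 ± 0.52. No tested member passed limma after adjustment over all genes (adjusted p = 0.92 to 0.996), and 0 had an unadjusted p under 0.05, where 0.0318% and 5.98% of all genes did. No member was free of overlap, against 9.96% of tested genes higher and 8.66% lower without overlap. Without AE+Meis2 replicate 2 the median turned to -0.18 and 8 of 10 were lower, Sparc by -0.50 and Col1a2 by -0.38.

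**Figure D4:**
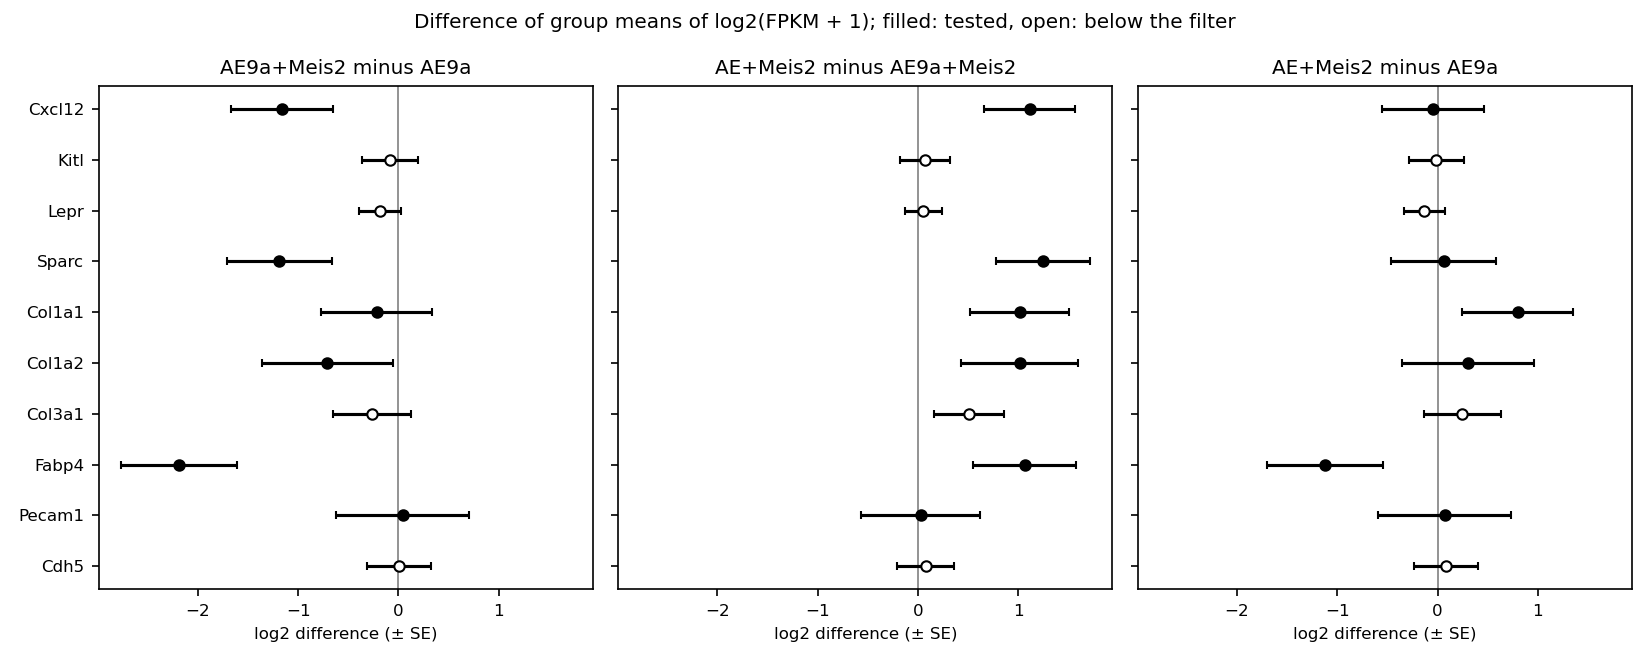
Difference of group means of log2(FPKM + 1) for each member in the 3 comparisons, with bars of 1 standard error. Filled points were tested, and open points lay below the filter, with the error from a fit without it: Fabp4 in AE9a+Meis2 minus AE9a, at -2.19, lies farthest from 0.

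Across the 8 libraries the lowest value of a member fell in AE9a+Meis2 for 8 of the 10, and for 5 of the 6 tested, where the same held for 31.1% of all tested genes. Sparc in 1 library and Col1a1 and Col1a2 in none of AE9a+Meis2 reached the filter, so they were tested through the groups in which they are higher and the count over tested members is no support. The highest value fell in AE+Meis2 replicate 2 for Cxcl12, Sparc, Col1a1, Col1a2, Col3a1 and Cdh5. These include 4 of the 6 tested members, where that library was highest for 25.1% of tested genes. This count was chosen after the values were seen. Among other matrix and collagen-processing genes, 6 of 12 tested, and 16 of all 26 in the table, were highest in the same library. The 25.1% is a share of tested genes, none was computed with genes below the filter, and nothing is read from the 16. Also highest there were 2 of 4 tested genes of bone-forming cells, 3 of 6 of fat cells and 2 of 3 of skeletal muscle and cartilage. Of the partners of the niche signals, such as receptors, 5 of 12 were. The basement membrane chain Col4a1 was at 3.58 FPKM there and at 0.121 to 0.475 FPKM elsewhere, and the proteoglycan Bgn at 10.3 FPKM, against 1.16 to 5.02 FPKM elsewhere. Of the tested megakaryocyte and platelet genes, 7 of 8 were highest there too: the platelet integrin Itga2b was at 255 FPKM, against 5.66 to 53.5 FPKM in the other 7 libraries, and the platelet chemokine Pf4 at 82.4 FPKM, against 0.715 to 38.1 FPKM. Platelets carry SPARC and PECAM1, and Pecam1 was lowest in that library. The vascular and platelet factor Vwf, 7.58 FPKM, and the vascular sialomucin Emcn, 2.07 FPKM, were highest there as well, while of the 8 tested endothelial genes 1 was. The part of depth or of platelets in the matrix values of that library was not tested.

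**Figure D5:**
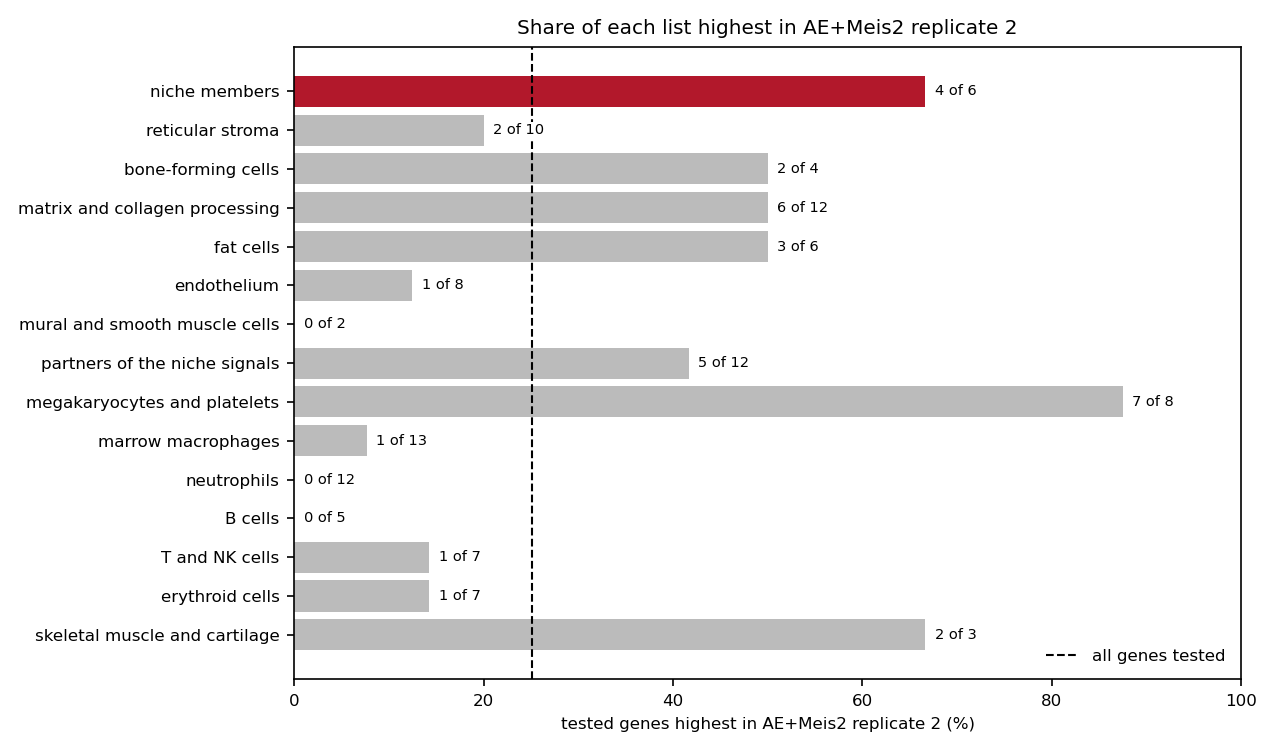
Share of the tested genes of each list, in percent, whose highest value lay in AE+Meis2 replicate 2, with the count beside each bar. The dashed line is the 25.1% of all tested genes: 4 of 6 members and 7 of 8 megakaryocyte and platelet genes lie beyond it. So do the lists of bone-forming cells, matrix, fat cells, partners of the niche signals, and skeletal muscle and cartilage.

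The wider niche was read through lists of related genes. In AE9a+Meis2 against AE9a, 9 of 12 tested matrix and collagen-processing genes were lower (median log2 -0.44), with the calcification inhibitor Mgp at 15.7, 8.60 and 2.90 FPKM in AE9a+Meis2 libraries, against 65.1 and 26.5 FPKM in AE9a libraries (log2 -2.32 ± 0.87). Of the endothelial list 6 of 8 were lower (median -0.34), among them Egfl7, a secreted vascular factor, at -1.40 ± 0.48, and the angiopoietin receptor Tek at -1.73 ± 0.66. Of 4 tested genes of bone-forming cells 3 were lower, with the bone sialoprotein gene Ibsp at -1.46 ± 0.50. The reticular stroma list was split 5 to 5 (median -0.050), and the fat list had 4 higher and 2 lower (0.061), with the transcription factor Cebpa, which granulocyte precursors also use, at 1.48 ± 0.47 and the lipid receptor Cd36 at -1.89 ± 0.79. Of the partners of the niche signals, a list of receptors and other genes, 8 of 12 were higher and 4 lower (median 0.19). The receptor Cxcr4 was at 1.60 ± 0.70 and the receptor Kit at -0.87 ± 0.93. These counts are of tested genes, and for comparison 50.1% of all tested genes were lower. With genes below the filter included, 22 of 26 matrix, 18 of 24 endothelial and 7 of 12 bone-forming genes were lower. So were 11 of 16 reticular stroma and 8 of 14 fat genes. No share over all genes stands beside these wider counts. Genes below the filter can lie near the background of AE9a replicate 1 and AE9a+Meis2 replicate 3. Silent families averaged 0.597 and 0.461 FPKM there, and nothing is read from the wider counts. None of the tested genes of these lists passed limma adjusted over all genes.

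In AE+Meis2 against AE9a+Meis2, 9 of 10 tested reticular stroma genes were higher (median log2 0.65), and 13 of all 16 listed (0.24). The genes of this list below the filter, Pdgfra among them, differed only by -0.15 to 0.27. The part of each cell type in the tested genes of this list was not tested. Angpt1, the ligand of Tek, was at 2.36, 14.4 and 4.78 FPKM in AE+Meis2 against 0.210, 0.264 and 0.401 FPKM in AE9a+Meis2, a log2 difference of 2.37 ± 0.61 (limma, adjusted p = 0.47). Of the tested genes of the other lists, 7 of 12 matrix genes (median 0.40), 6 of 8 endothelial genes (0.48), 4 of 4 genes of bone-forming cells (0.59), 4 of 6 fat genes (0.39) and 2 of 2 mural cell genes (1.20) were higher, where 54.9% of all tested genes were. With genes below the filter included, 20 of 26 matrix (0.43), 14 of 24 endothelial (0.11), 6 of 12 bone-forming (0.012) and 9 of 14 fat genes (0.11) were higher. Of the 10 mural cell genes 4 were higher and 6 lower (-0.052). Cebpa had the smallest p of the fat list and was lower, at -1.78 ± 0.42 (limma, adjusted p = 0.42). Among tested genes the lists of blood cells were unequal: 8 of 8 megakaryocyte and platelet genes (median 0.95), 8 of 13 marrow macrophage genes (0.64), 9 of 12 neutrophil genes (0.46), 6 of 7 T and NK cell genes (0.52), 3 of 5 B cell genes (0.045) and 3 of 7 erythroid genes (-0.071) were higher. None of them passed limma adjusted over all genes. In AE9a+Meis2 against AE9a, the platelet and macrophage lists had 6 of 8 lower (-0.51) and 9 of 13 lower (-0.69), including Spic, a factor of iron-recycling macrophages, at -2.61 ± 0.55. Summed over the 10 platelet genes, the level was 24.7 to 392 FPKM in AE+Meis2, 23.4 to 32.6 FPKM in AE9a+Meis2 and 32.8 to 42.1 FPKM in AE9a. Summed over the 13 macrophage genes in the table, it was 332 to 653 FPKM in AE+Meis2, 215 to 506 FPKM in AE9a+Meis2 and 368 to 404 FPKM in AE9a. The part of these cells in the results for Sparc, Fabp4 and Pecam1 was not tested. In AE+Meis2 against AE9a, 9 of 10 tested reticular genes were higher (0.55), 5 of 8 tested endothelial genes were higher (0.22), with Egfl7 at -1.53 ± 0.48 among the 3 that were lower, and 3 of 4 tested bone genes were lower (-0.67). With genes below the filter included, 10 of 16 reticular (0.094) and 10 of 24 endothelial genes (-0.043) were higher, and 8 of 12 bone genes were lower (-0.26). For both comparisons with AE+Meis2, no share over all genes stands beside counts that include genes below the filter, and nothing is read from those.

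The pattern of a member across libraries was compared with that of 11406 other tested genes, by the root mean square difference of log2(FPKM + 1) profiles centred on their own means over the 8 libraries. For Fabp4 the 3 nearest were Fam198b (0.39), Ibsp (0.50) and the collagenase Mmp13 (0.50), the last 2 being genes of bone matrix. Ibsp read 5.66, 1.98 and 0.886 FPKM in the AE+Meis2 libraries, 2.16, 1.64 and 1.49 FPKM with AE9a+Meis2, and 7.71 and 5.62 FPKM with AE9a alone, high in the same 3 libraries as Fabp4. For Col1a2 the nearest were Klhdc1 (0.10), the kinase gene Nlk (0.19) and Lyrm9 (0.20), all highest in AE+Meis2 replicate 2. For Cxcl12 they were Tsacc (0.32), Zfp322a (0.33) and Bgn (0.34). For Pecam1 they were Gins2 (0.31), a subunit of the replicative helicase, the histone chaperone Nasp (0.33) and the mitochondrial enzyme Idh2 (0.34). These are given as a description.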

How the data were processed

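RNA of 8 libraries in 3 groups was sequenced, with groups and replicate numbers taken from the sample titles. Nothing in the labels ties a library to a donor or batch, so p-values measure only the spread between these libraries, which may be in part technical. The authors deposited 1 table of FPKM. They name TopHat, Cufflinks, Cuffdiff and mm10, per the submitters' processing notes. Tool versions, annotation and any scaling are not given in the sources available. Per the labels' protocols the kit was TruSeq version 2, so strand was not used to tell overlapping genes apart. The depth of each library is unknown, so counting error could not be given.

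Values were taken to log2(FPKM + 1), which understates changes of low genes. One fit of all 8 libraries, with a coefficient for each group, used limma 3.58.1 (R 4.3.3) (2.28 prior and 5 residual degrees of freedom, intensity trend), for genes with at least 1 FPKM in at least 2 libraries. P-values were adjusted by Benjamini-Hochberg over all 12565 genes, with a threshold of 0.05. The code of the fit was run on simulated data with independent noise and large planted shifts. These data lacked the background and depth differences of the libraries, so the run checks the code and not the results. Members, lists, the rule for named genes (all members; up to 3 genes a list by smallest p; 3 nearest patterns for the member of widest range in each role) and most alternatives were chosen with earlier results of these data known. Genes named outside the rule, chosen after their values were seen, are Pdgfra, Adipoq, Kdr, Plin1, Cidec, Lpl, Pparg, Erg, C1qa, Col4a1, Itga2b, Vwf, Emcn and Kit. Gene positions are those of RefSeq on GRCm38.p6. Tables and plots were made with matplotlib 3.10.9, NumPy 2.4.6, pandas 2.3.3 and Python 3.11.15.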

Additional observations from a re-analysis of the deposited data

How the results depend on the processing

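Each member's difference was recomputed under 19 alternatives, of which 1, subtracting the mean of silent families, was chosen after seeing the data. No tested member passed limma in any of them. Of 570 recomputed member values, 56 changed sign: 20 of the tested members, given below, and 36 of Kitl, Lepr, Col3a1 and Cdh5, which lay below the filter. Fabp4, Cxcl12, Sparc, Col1a1 and Col1a2 kept their sign in all 19 for the pair AE9a+Meis2 and AE9a, and likewise for the pair AE+Meis2 and AE9a+Meis2.

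Below, the first comparison is AE9a+Meis2 against AE9a, the second sets AE+Meis2 against AE9a+Meis2, and the third sets AE+Meis2 against AE9a. They had 6, 5 and 4 called genes. With small RNA genes left out and the rest rescaled, Pecam1 turned to -0.058, -0.23 and -0.29 in the 3, and Sparc to -0.25 in the third. That scaling shifted the median of all tested genes by -0.11, -0.23 and -0.35. It called 1 gene higher and 3 lower in the first (3 and 3 as deposited), 12 genes in the second (3 higher and 9 lower, against 4 and 1), and 0 in the third (3 and 1 as deposited; 854 genes at an unadjusted p under 0.05 by limma). Median-of-ratios scaling called 3 higher and 0 lower in the third. Without both libraries with values in silent families Pecam1 was -0.64, -0.12 and -0.77. In the third, no filter gave 1 called gene and the pair of groups alone gave 2. A pseudocount of 0.1 moved the member median to -0.72 in the first and 1.16 in the second. In the first it was -0.091 with quantile normalization, -0.096 with the silent-family mean subtracted and -0.42 with small RNA genes left out, which turned it to -0.20 in the third.

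The samples share only a replicate number: deviations of same-numbered libraries correlated at -0.025 to 0.13. The replicate block gave 2, 5 and 0 called genes (688 at an unadjusted p under 0.05 by limma in the third), and turned Pecam1 to -0.00087 in the first and Cxcl12 to 0.057 in the third.

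Leaving out 1 library gave 2 to 9 called genes in the first, 6 to 23 in the second and 1 to 10 in the third, with 23 and 10 both without AE+Meis2 replicate 3. The second had 8 without the library labelled AE+Meis2 replicate 1 or without AE+Meis2 replicate 2, and 9 without AE9a+Meis2 replicate 1. The first had 2 without AE9a replicate 1. The third had 1 without AE9a replicate 1 or the library labelled AE+Meis2 replicate 1, and 2 without AE9a+Meis2 replicate 2. The member median ranged from -0.52 to -0.24, from 0.41 to 0.92 and from -0.18 to 0.23 in the 3. Pecam1 ranged from -0.79 to 0.88, from -0.31 to 0.60 and from -0.77 to 0.90 in the 3. In the third, Cxcl12 ranged from -0.53 to 0.39, Sparc from -0.50 to 0.47 and Col1a2 from -0.38 to 0.85. Where AE9a was left with 1 library, it was assumed to vary like the other groups. The causes were not tested.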
